A study of Mus musculus with 6 samples.

Results

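The genes described here are 10 paired surface receptors of myeloid cells, chosen by symbol from the 37043 rows of the count table. They come from the LILR/PIR, CD200R and CD300 families and the C-type lectins, and all 10 were present and expressed highly enough to be tested. Those treated here as inhibitory are Lilrb4a, Pirb, Cd200r1, Cd300a, Cd300lf and Clec12a, and those treated as activating are Lilr4b, Cd200r3, Cd200r4 and Cd300lb. Bone marrow-derived basophils (BMBAs) were grown for 7 days from wild-type C57BL/6J mice at 0.3 ng/mL of a cytokine that the study's methods name as IL-3, and were enriched with CD49b beads. Both groups shared this treatment, after which 3 cultures received PBS and 3 received IL-3 at 10 ng/mL for 6 h before bulk RNA-seq. The comparison asks which receptor transcripts IL-3 stimulation raises or lowers. The age of the mice and the number pooled per culture were not given in the sources used here, nor was whether the cytokine of the culture stayed in the medium during stimulation.

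Paired receptors are families in which closely related extracellular domains are joined to opposite signalling tails. An inhibitory member usually carries immunoreceptor tyrosine-based inhibitory motifs (ITIMs) in its cytoplasmic tail, which recruit the phosphatases SHP-1 (Ptpn6) and SHIP1 (Inpp5d) once phosphorylated. An activating member has a short tail and usually signals through a partner such as DAP12 (Tyrobp), DAP10 (Hcst) or the Fc receptor gamma chain (Fcer1g). In basophils and mast cells such receptors tune the response to IgE receptor crosslinking, and CD200R3 serves as a surface marker of mouse basophils.

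The coding sequences show which members carry the inhibitory motif. Each member's longest coding sequence in GENCODE M21 (GRCm38) was translated, and the side of its most hydrophobic stretch that lies in the cytoplasm was searched for an isoleucine, leucine, valine or serine, any residue, a tyrosine, any pair of residues, and an isoleucine, leucine or valine. Pirb held 3 matches, Lilrb4a, Cd300a and Cd300lf held 2 each, and Clec12a held 1. Cd200r1 held 0, as did the activating members Lilr4b, Cd200r3, Cd200r4 and Cd300lb. CD200R1 is known to signal through other tyrosines that bind the adaptors DOK1 and DOK2. The 10 matches are printed as 30 bases of coding sequence each, 5′ to 3′ on the coding strand, with the codons of the motif in capitals.
Lilrb4a motif 1: cagggaATTGTCTACGCCCAGGTAaaaccc
Lilrb4a motif 2: caggatGTAACCTATGCCCAGTTGtgcatc
Pirb motif 1: gaagaaAGCCTATATGCTTCAGTGgaggac
Pirb motif 2: caggatGTGACCTATGCCCAGCTGtgcagc
Pirb motif 3: gagcccAGTGTATATGCTACTCTGgcggct
Cd300a motif 1: gaagtgGTGGAATATAGCACATTGgcatta
Cd300a motif 2: gaagagCTTCACTATTCATCCGTGgcattc
Cd300lf motif 1: ggtgatCTCTGTTATGCAGACCTGtccctg
Cd300lf motif 2: gaggagGTTTCATATGCCGCTCTGactttg
Clec12a motif 1: gaagaaATTGTTTATGCAAATCTCaaaatc
The Lilrb4a matches lie in its coding exons at chr10:51496015-51496044 and chr10:51496188-51496217, plus strand. Motif 1 of Pirb and motif 1 of Cd300a each span an exon junction. Motif 2 of Pirb lies at chr7:3712780-3712809, minus strand, and motif 1 of Clec12a at chr6:129350427-129350456, plus strand. The Clec12a match begins at residue 5, since this lectin has its tail at the amino terminus.

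All 10 receptors differed between the groups, 7 higher and 3 lower in IL-3-stimulated BMBAs, with rises and falls among both inhibitory and activating members. Higher were the inhibitory Lilrb4a, Cd200r1, Cd300lf and Pirb and the activating Lilr4b, Cd200r4 and Cd200r3. Lower were the inhibitory Clec12a and Cd300a and the activating Cd300lb. Across all genes tested, 18.0% were called higher and 20.2% lower at an edgeR adjusted p under 0.05, 38.2% in all. In each of the 10 receptors the libraries of both groups did not overlap, which held for 48.2% of all 16675 genes tested. The median log2 fold change was 0.87 over the 10 receptors and -0.0033 over all genes tested.

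**Figure D1:**
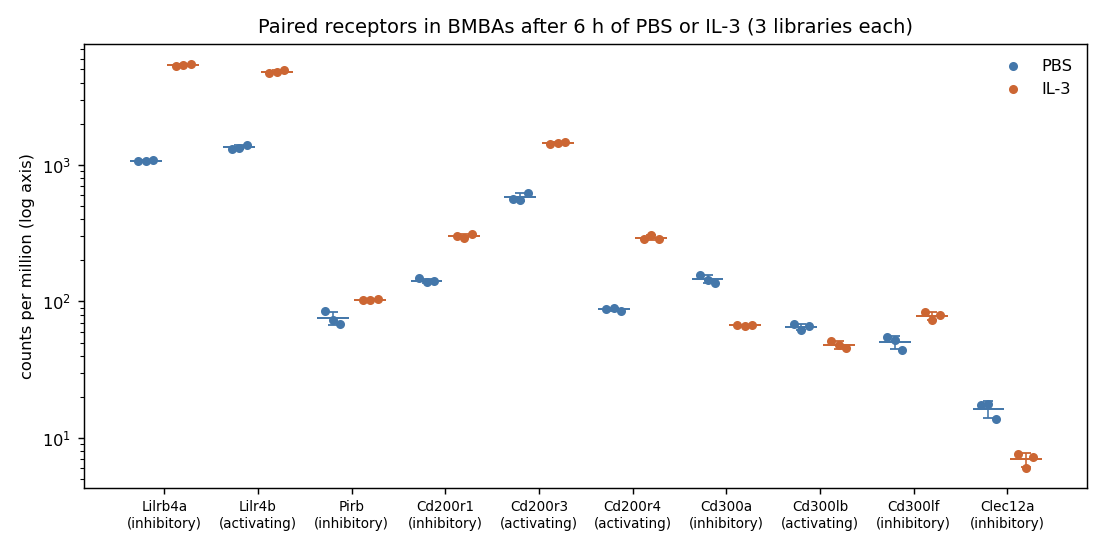
Normalised expression (CPM, log axis) of the 10 receptors in each library, PBS in blue and IL-3 in orange, with lines at the mean and bars of ± SD (n = 3 each). The IL-3 points lie above the PBS points in 7 receptors and below them in Cd300a, Cd300lb and Clec12a.

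The largest rises were those of the gp49 receptors, Lilrb4a and Lilr4b. Lilrb4a (ENSMUSG00000112148, chr10:51490956-51496611, plus strand, GRCm38) encodes gp49B, an ITIM receptor of mast cells and basophils. It had 1058, 1059 and 1086 CPM (counts over the TMM-scaled library size) in the PBS libraries and 5301, 5416 and 5441 CPM in the IL-3 libraries. The IL-3 libraries were 5.04-fold higher, a log2 fold change of 2.33 (SE 0.038, edgeR adjusted p 3.74e-16). Lilr4b (ENSMUSG00000112023, chr10:51480632-51486703, plus strand) encodes gp49A, which lacks the ITIMs. It had 1309, 1325 and 1396 CPM in PBS and 4713, 4784 and 4933 CPM in IL-3. Its rise was 3.58-fold (log2 fold change 1.84, SE 0.041, edgeR adjusted p 9.01e-15). By mean CPM over the 6 libraries Lilrb4a ranked 21 and Lilr4b 23 among all genes tested.

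These genes lie side by side, and their aligned coding sequences were 96.0% identical, so the division of reads between them is uncertain. Of the 50-mers of Lilrb4a, 94.5% also occurred in another gene's transcripts, and 92.5% in Gm49339, a gene model that shares 1846 exonic bases with Lilrb4a and 122 with Lilr4b. For Lilr4b the share was 25.5%, chiefly with Lilrb4a. Gm49339, chosen after its values were seen, had 264, 259 and 280 CPM in PBS and 1349, 1358 and 1376 CPM in IL-3. When the reads of Lilrb4a, Lilr4b and Gm49339 were summed, the locus had 2631, 2643 and 2762 CPM in PBS and 11363.9, 11559.6 and 11750.4 CPM in IL-3. The log2 fold change of the sum was 2.11 (SE 0.036, edgeR adjusted p 5.25e-16), whichever gene the reads came from. These rows took 0.274% to 0.295% of all counts in the PBS libraries and 1.08% to 1.09% in the IL-3 libraries. An annotated antisense gene, Gm40645, overlaps 131 exonic bases of Lilrb4a and had at most 23.2 CPM in any library.

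Pirb rose less. Pirb (ENSMUSG00000058818, chr7:3711409-3720391, minus strand) encodes PIR-B, an inhibitory receptor for MHC class I molecules, and had 84.8, 72.8 and 68.4 CPM in PBS and 103, 102 and 105 CPM in IL-3. The rise was 1.37-fold (log2 fold change 0.45, SE 0.074, edgeR adjusted p 0.000147), and the highest PBS library remained below the lowest IL-3 library. With library totals the log2 fold change was 0.29 (adjusted p 0.00428). Pirb shared 37.3% of its 50-mers with relatives. Summed with the 9 rows that each held at least 5% of its 50-mers, the log2 fold change was 0.32 (SE 0.063, edgeR adjusted p 0.000813).

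In the CD200 receptor family the inhibitory member and both activating members rose. Cd200r1 (ENSMUSG00000022667, chr16:44765736-44794978, plus strand) encodes the inhibitory receptor for CD200 and had 147, 138 and 141 CPM in PBS and 300.03, 291 and 314 CPM in IL-3. Its rise was 2.12-fold (log2 fold change 1.09, SE 0.055, edgeR adjusted p 2.36e-10). Cd200r3 (ENSMUSG00000036172, chr16:44943678-44981380, plus strand), the DAP12-coupled basophil receptor, had 560.4, 557 and 627 CPM in PBS and 1425, 1450.4 and 1462 CPM in IL-3. It rose 2.49-fold (log2 fold change 1.31, SE 0.051, edgeR adjusted p 8.11e-12). Cd200r4 (ENSMUSG00000062082, chr16:44811733-44839150, plus strand), also DAP12-coupled, had 88.0, 89.0 and 85.1 CPM in PBS and 286, 306 and 287 CPM in IL-3. Its rise was the largest of the family, 3.35-fold (log2 fold change 1.75, SE 0.056, edgeR adjusted p 9.01e-13). None of these genes shared more than 4.94% of its 50-mers with other genes.

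Cd200r3 and Cd200r4 lie on the plus strand of chromosome 16, and their promoters resembled each other. The RefSeq windows of 250 bases before to 50 after the start (GRCm38.p6) are printed because these related genes rose together, with stretches of at least 15 bases found in both in capitals. The windows are chr16:44943428-44943727 and chr16:44820478-44820777. That of Cd200r3 is placed at the first base of its GENCODE gene, whereas that of Cd200r4 is placed at a start inside its GENCODE gene.
Cd200r3 promoter: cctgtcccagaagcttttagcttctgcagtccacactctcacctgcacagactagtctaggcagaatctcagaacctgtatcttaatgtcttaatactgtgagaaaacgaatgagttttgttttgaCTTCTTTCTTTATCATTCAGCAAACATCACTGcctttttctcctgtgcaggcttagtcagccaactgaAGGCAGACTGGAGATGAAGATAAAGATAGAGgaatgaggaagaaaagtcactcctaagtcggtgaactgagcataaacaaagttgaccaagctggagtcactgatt
Cd200r4 promoter: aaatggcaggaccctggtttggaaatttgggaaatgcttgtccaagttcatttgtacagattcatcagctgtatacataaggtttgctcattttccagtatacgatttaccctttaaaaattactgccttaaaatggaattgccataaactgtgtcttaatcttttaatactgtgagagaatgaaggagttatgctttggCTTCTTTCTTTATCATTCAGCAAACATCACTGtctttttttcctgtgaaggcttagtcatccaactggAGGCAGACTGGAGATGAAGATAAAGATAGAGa
The best local alignment covered 156 columns with 89.7% identity, from -181 to -26 of Cd200r3 and from -107 to 48 of Cd200r4 relative to the start. The longest shared run was 32 bases. Promoter entries matched 8 of the 10 receptors, Lilrb4a and Cd200r1 not among them. The windows were searched on both strands for a STAT motif (TTCNNNGAA), a GATA motif (AGATAA) and an ETS motif (GGAAGT). The GATA letters, which 11.2% of 32851 promoters held, occurred in Cd200r3 and Cd200r4 and lie in a shared run. The STAT letters occurred in Lilr4b at -104, beside 8.30% of all promoters. The ETS letters occurred in Pirb, Cd300lb and Cd300lf, beside 23.8% of all promoters. A match describes these letters in the window and is not a measured binding site.

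The CD300 receptors went both ways. Cd300a (ENSMUSG00000034652, chr11:114890041-114904654, plus strand), an ITIM receptor for phosphatidylserine and phosphatidylethanolamine, had 156, 144 and 136 CPM in PBS and 67.3, 66.0 and 66.9 CPM in IL-3. Expression was 2.18-fold higher in PBS (log2 fold change -1.12, SE 0.064, edgeR adjusted p 8.73e-10). Cd300lb (ENSMUSG00000063193, chr11:114922781-114934386, minus strand), the activating DAP12-coupled member, had 67.8, 61.9 and 66.6 CPM in PBS and 51.2, 47.8 and 45.4 CPM in IL-3. It was 1.36-fold higher in PBS (log2 fold change -0.45, SE 0.074, edgeR adjusted p 0.000165). Cd300lf (ENSMUSG00000047798, chr11:115116214-115133992, minus strand), an ITIM receptor that binds ceramide, had 54.8, 52.1 and 43.9 CPM in PBS and 83.5, 73.2 and 79.3 CPM in IL-3. It rose 1.56-fold (log2 fold change 0.64, SE 0.084, edgeR adjusted p 1.52e-05).

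Cd300lf stood apart from its neighbours on chromosome 11. Of the 11 CD300 genes of the cluster in the table, 9 were tested, of which 8 were called lower and only Cd300lf higher. The shares over all genes tested were 20.2% lower and 18.0% higher. The lower genes ranged from -1.32 to -0.45 on the log2 scale. Cd300c2 fell most, from 170 ± 10.7 to 68.5 ± 4.62 CPM (SD, n = 3 each), with a log2 fold change of -1.32 (SE 0.068, edgeR adjusted p 2.87e-10). Cd300ld4 and Cd300ld3 had log2 fold changes of -1.19 and -1.10. They and Cd300ld5 shared 82.1% to 100% of their 50-mers with other genes, and Cd300ld2 shared 31.0%. The separate values of these genes are thus uncertain, and their calls are not separate observations. Cd300lb shared none with another gene, and Cd300a and Cd300lf shared 3.28% and 6.04%. Cd300lf lies within the span of Rab37, which runs on the other strand, with no exonic overlap between them. Rab37 was also called higher, from 82.5 ± 5.63 to 110.3 ± 6.86 CPM (log2 fold change 0.42, edgeR adjusted p 0.000155). Its part in the Cd300lf value was not tested.

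**Figure D2:**
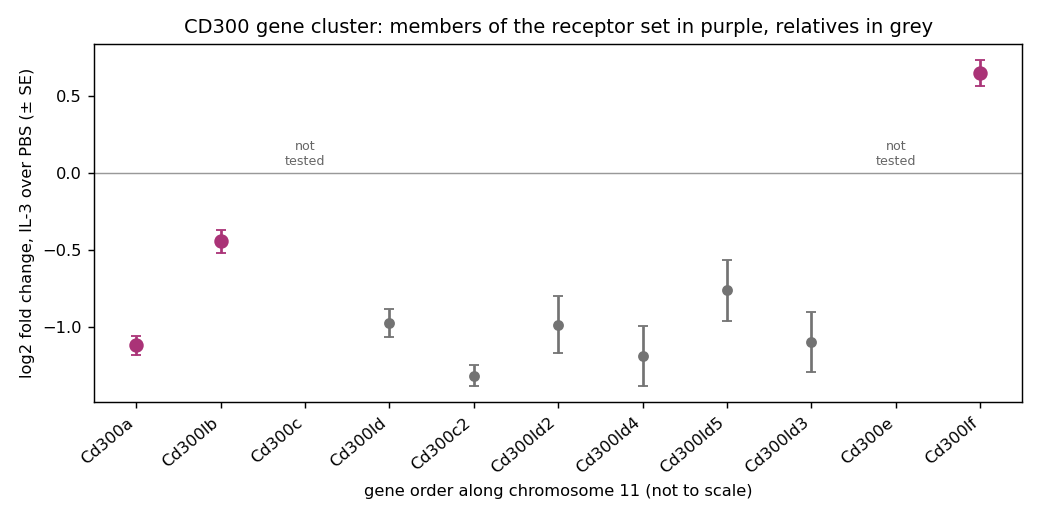
Log2 fold change (IL-3 over PBS, ± SE) of the CD300 genes in their order along chromosome 11, receptors of the set in purple and relatives in grey. The 8 tested genes from Cd300a to Cd300ld3 lie between -1.32 and -0.45, and Cd300lf at the end lies at 0.64.

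Clec12a was the least abundant of the 10 receptors and fell the most. The gene (ENSMUSG00000053063, chr6:129342691-129365303, plus strand) encodes an ITIM lectin that recognises uric acid crystals, and the study uses it as a marker of pre-basophils. It had 17.5, 17.9 and 13.7 CPM in PBS and 7.60, 6.08 and 7.21 CPM in IL-3, resting on 156 to 214 and 73 to 93 reads per library. Expression was 2.36-fold higher in PBS (log2 fold change -1.24, SE 0.15, edgeR adjusted p 8.15e-06). No 50-mer of Clec12a occurred in another gene.

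Per length, the receptors spanned a wide range of levels. As mean CPM per kilobase of the median coding transcript, PBS-treated BMBAs had 902 ± 31.0 for Lilr4b and 882 ± 13.2 for Lilrb4a (SD, n = 3 each), whose libraries overlapped. Below them came Cd200r3 at 475, Cd200r1 at 75.2, Cd200r4 at 48.6, Cd300a at 31.3, Cd300lf at 27.0, Cd300lb at 23.7, Pirb at 19.7 and Clec12a at 9.86. Cd300lf overlapped with both of its neighbours in this order. In IL-3-stimulated BMBAs Lilrb4a led with 4449 ± 61.6, followed by Lilr4b with 3229 ± 75.3 and Cd200r3 with 1182 ± 15.7. Cd200r4 at 163 and Cd200r1 at 159 overlapped, and Cd300lf at 42.2, Pirb at 27.0, Cd300lb at 17.4, Cd300a at 14.4 and Clec12a at 4.19 followed without overlap. Cd300a thus moved from rank 6 to rank 9. With the longest transcript as the length, chosen after the data were seen, Cd200r3 came to 150.0 and 373 and stayed at rank 3, Lilrb4a led in both groups, and Cd200r1 lay above Cd200r4 in IL-3.

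The balance between inhibitory and activating partners was measured as the log2 ratio of their read counts within a library, which does not depend on library scaling. Lilrb4a over Lilr4b was -0.31, -0.32 and -0.36 in PBS and 0.17, 0.18 and 0.14 in IL-3, a shift of 0.49 towards the inhibitory gene. Since most 50-mers of Lilrb4a are shared, this ratio also depends on how the reads were divided. Cd200r1 over Cd200r4 was 0.74, 0.63 and 0.73 in PBS and 0.068, -0.072 and 0.13 in IL-3, a shift of -0.66 towards the activating gene. Cd200r1 over Cd200r3 shifted the same way by less, from -1.93, -2.01 and -2.15 to -2.25, -2.32 and -2.22, a difference of -0.23.

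In the CD300 family the direction depended on the inhibitory partner. Cd300a over Cd300lb went from 1.20, 1.21 and 1.03 in PBS to 0.39, 0.47 and 0.56 in IL-3, a shift of -0.68. Cd300lf over Cd300lb went from -0.31, -0.25 and -0.60 to 0.70, 0.61 and 0.81, a shift of 1.09. In all 5 ratios the groups did not overlap. The two-sided exact permutation test gave p = 0.1 for each, the smallest that 3 against 3 libraries allow, and the Benjamini-Hochberg value over the 5 ratios was 0.1, so no ratio could pass 0.05.

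**Figure D3:**
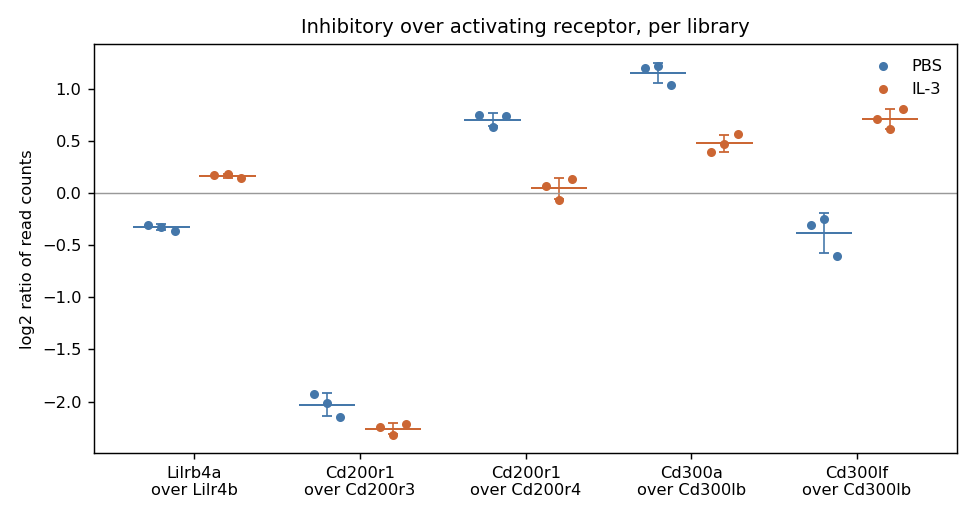
Log2 ratio of the read counts of an inhibitory receptor over an activating partner in each library, PBS in blue and IL-3 in orange, with lines at the mean and bars of ± SD (n = 3 each). Lilrb4a over Lilr4b and Cd300lf over Cd300lb cross from below 0 to above it, and the other 3 ratios are lower in IL-3.

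The adaptors and effectors of these receptors were measured next. Of 17 genes, all tested, 7 were called higher and 2 lower, with a median log2 fold change of 0.041. With library totals Shc1 and Sh2b3 were no longer called (adjusted p 0.232 and 0.230) and Lyn, Ptpn6 and Ptpn11 were called lower, which gives 5 higher and 5 lower. The 3 partners of the activating receptors all rose. Tyrobp, which encodes DAP12, went from 1677 to 2071 CPM (log2 fold change 0.30, edgeR adjusted p 4.80e-05), and was at 0.14 with library totals. Fcer1g rose from 1131 ± 7.49 to 1648 ± 20.7 CPM (SD, n = 3 each; log2 fold change 0.54), and Hcst, which encodes DAP10, from 49.3 ± 2.93 to 95.7 ± 10.2 CPM (log2 fold change 0.96). All 3 were at higher CPM in each IL-3 library than in any PBS library.

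The phosphatases that ITIMs recruit were not called. Ptpn6 was at 65.8 ± 4.49 and 59.1 ± 1.83 CPM (log2 fold change -0.16, edgeR adjusted p 0.0975), and its libraries did not overlap between groups. It was called lower with library totals (-0.32, adjusted p 0.00248) and without PBS replicate 3 (-0.21, adjusted p 0.0352). No call was made for Inpp5d, at 185 ± 11.7 and 186 ± 9.54 CPM (edgeR adjusted p 0.893). The adaptors that bind CD200R1 moved in opposite directions. Dok2 had 53.7, 51.1 and 49.3 CPM in PBS and 213, 200.4 and 173 CPM in IL-3 (log2 fold change 1.93, SE 0.077, edgeR adjusted p 1.22e-11). Dok1 fell from 34.6 ± 3.90 to 25.8 ± 1.32 CPM (log2 fold change -0.42, edgeR adjusted p 0.00368). Inppl1, which encodes the phosphatase SHIP2, was at -0.67.

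Of 11 ligands, 2 were called higher and 4 lower, with a median of 0.015, or 1 higher and 6 lower with library totals. Cd200, the ligand of CD200R1, had 15.1, 20.2 and 15.9 CPM in PBS and 7.01, 5.91 and 5.51 CPM in IL-3 (log2 fold change -1.48, SE 0.16, edgeR adjusted p 1.83e-06). Ligand and receptor transcripts in the CD200 system thus moved in opposite directions within the same cultures. Apoe and Fn1, whose products bind LILRB4 or its mouse relative, fell with log2 fold changes of -1.08 and -1.03, and Apoe went from 5006 ± 133 to 2369 ± 86.1 CPM. B2m, the light chain of MHC class I, was at -0.38, while H2-K1 and H2-D1, heavy chains that PIR-B binds, were at 0.084 and 0.015 and were not called. H2-D1 was called lower with library totals (-0.15, adjusted p 0.0105). Cd47, the ligand of SIRPA, rose from 275 ± 11.4 to 535 ± 3.57 CPM (log2 fold change 0.96). Itgb3, a chain of the integrin that binds gp49B, was at 0.39 (edgeR adjusted p 0.0106). Its adjusted p was 0.0609 without PBS replicate 1, 0.0534 without PBS replicate 3, 0.0502 without IL-3 replicate 3, 0.119 with DESeq2 and 0.113 with library totals.

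**Figure D4:**
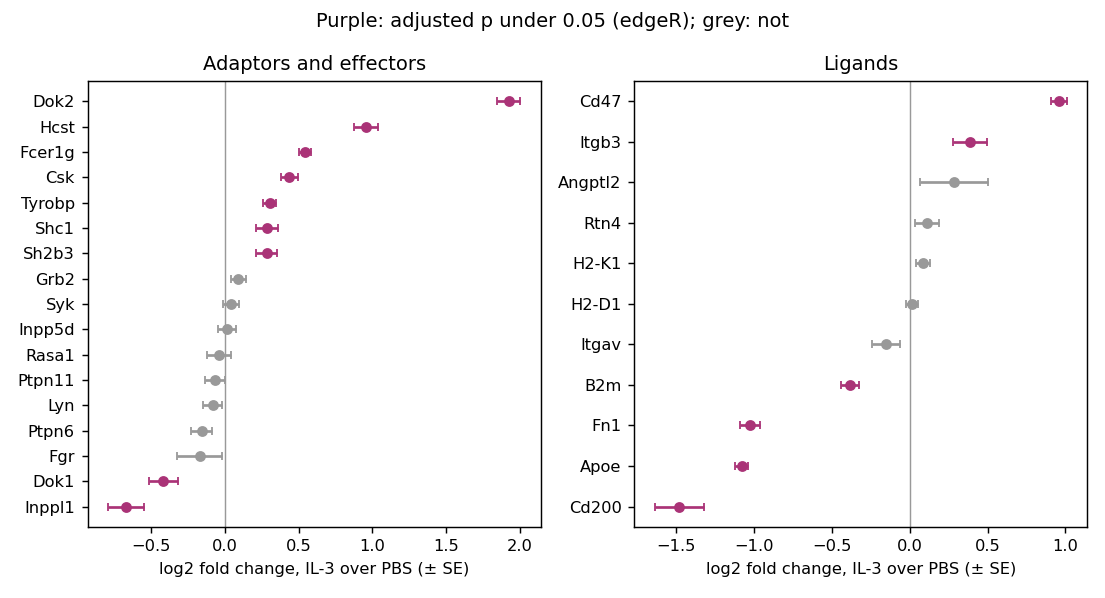
Log2 fold change (IL-3 over PBS, ± SE) of the 17 adaptors and effectors and the 11 ligands, in purple where the edgeR adjusted p was under 0.05. Dok2 at 1.93 and Cd47 at 0.96 head the lists, and Inppl1 at -0.67 and Cd200 at -1.48 end them.

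Among other genes of these receptor families and in each list of related receptors, more were called lower than higher. Over all genes tested, 18.0% were called higher and 20.2% lower. Of 21 family relatives 14 were in the table, 9 were tested, 2 were called higher and 7 lower, with a median of -0.98. The lower ones were the CD300 relatives of the chromosome 11 cluster described above and Pira2, at -0.37. Lilra6 rose (log2 fold change 0.92). Pira2 lost its call without PBS replicate 2 (adjusted p 0.0690) and without IL-3 replicate 3 (adjusted p 0.0588), and shared 93.0% of its 50-mers. Cd200r2, at 1.30 and 2.70 CPM and thus below the 5 CPM asked of a named gene, was at 1.04. It lost its call without PBS replicate 2, PBS replicate 3 or IL-3 replicate 3, with adjusted p of 0.0666, 0.0547 and 0.0852.

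Among 13 tested myeloid C-type lectins other than Clec12a, 3 were called higher and 7 lower, with a median of -0.52. Clec4d fell from 424 ± 16.5 to 149 ± 7.58 CPM (log2 fold change -1.50, edgeR adjusted p 5.50e-12), and Clec4a1 and Clec9a were at -1.41 and -1.29. Olr1, Clec5a and Clec2d rose with log2 fold changes of 1.55, 0.74 and 0.63. Of 14 other ITIM receptors tested, 3 were called higher and 6 lower, with a median of -0.56. Cd33 rose by 1.07, Fcgr2b by 0.64 and Pecam1 by 0.32 on the log2 scale, while Milr1, an inhibitory receptor of mast cells, was at -1.06, Cd22 at -0.87 and Lair1 at -0.82. With library totals Pecam1 was not called (adjusted p 0.0943), and the list had 2 higher and 9 lower genes. Of 12 other activating receptors tested, 1 was called higher and 7 lower, with a median of -1.14. Trem1, 1 of the 7, had at most 1.85 CPM in any library and an adjusted p of 0.0482. It lost its call with DESeq2 (adjusted p 0.137), with limma-voom (0.0663) and without PBS replicate 2 or 3 or IL-3 replicate 1, 2 or 3 (0.0543 to 0.174). The higher one was Pilrb1 at 2.61, and Fcgr4, Fcgr1 and Sirpb1c were at -1.51, -1.40 and -1.32.

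Most monocyte and macrophage markers and all cell cycle markers were lower in IL-3, as were 3 of the receptors. Of 12 monocyte and macrophage markers, 9 were called lower and 2 higher, and their summed level ranged from 11904 to 12839 CPM in PBS and from 6214.8 to 6839.6 CPM in IL-3. Lyz2, the most abundant, was at -0.97, Fcgr1 had the lowest value at -1.40, and Ly6c2 the highest at 1.29. None of the 12 was at 0. All 10 cell cycle markers were called lower, with sums of 733 to 798 CPM in PBS and 327 to 406 CPM in IL-3. Mki67 was at -1.04 and Ccnb2 at -1.42. The mean of PBS over that of IL-3 was 1.94 for the monocyte and macrophage sum and 2.11 for the cell cycle sum. It was 2.35 for Clec12a, 2.17 for Cd300a and 1.36 for Cd300lb. Without Lyz2, which made up most of it, the monocyte and macrophage sum gave 1.88. The study divides pre-basophils from mature basophils by surface CLEC12A and FcεRIα, higher on pre-basophils, and by CD9 and CD49b, higher on mature basophils. All 4 of their genes were on the mature side in IL-3, with Clec12a at -1.24 and Fcer1a at -0.50 and with Cd9 at 0.55 and Itga2, which encodes CD49b, at 0.53. The study also found less Mcpt8 and Prss34, which encode basophil proteases, in mature basophils than in pre-basophils. Here Mcpt8 was higher in IL-3 at 0.94, the pre-basophil side, and Prss34 was not called at 0.01. The part of all these genes in the falls was not tested. In bulk samples, fewer cells of a type and less RNA per cell cannot be told apart.

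**Figure D5:**
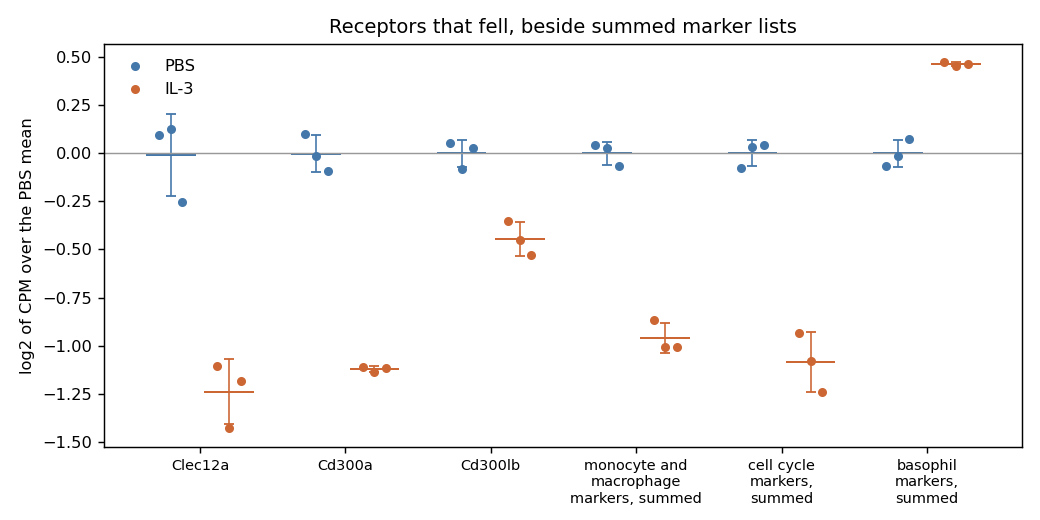
Expression of the 3 receptors that fell and of 3 summed marker lists in each library, as log2 of CPM over the PBS mean, with lines at the mean of these values and bars of ± SD (n = 3 each). The monocyte and macrophage sum and the cell cycle sum lie near -1 in IL-3 beside Clec12a and Cd300a, and the basophil sum lies between 0.45 and 0.47.

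Basophil markers were abundant in every library, with sums of 10564 to 11636 CPM in PBS and 15117 to 15319 CPM in IL-3. Of 8 markers 6 were called higher and 1 lower, with Mcpt8 at 0.94 and Fcer1a at -0.50, and with Cd9 at 0.55 (edgeR adjusted p 1.26e-07) and Itga2, which encodes CD49b, at 0.53 (edgeR adjusted p 0.000611), while Prss34, the most abundant, was at 0.012 and was not called, or at -0.15 with library totals (adjusted p 0.0255). Mast cell markers summed to 840.4 to 945 and 1437 to 1571 CPM, with 4 of 6 called higher, Cma1 at 1.31 and the most abundant, Cpa3, at 0.53. Neutrophil markers summed to 113 to 156 and 186 to 245 CPM, with 3 of 6 tested called higher and 1 lower, Ly6g at 3.66 on few reads, Lcn2 at 0.47 and Mpo at -0.63. Eosinophil markers summed to 155 to 173 and 95.6 to 136 CPM, with 1 of 5 tested called higher and 3 lower, Prg2 at 3.54 and Ear2 at -1.39. Dendritic cell markers summed to 330.2 to 387 and 228 to 254 CPM, with 1 of 7 tested called lower, H2-Ab1 at -0.75, and Cd209a at 0 in all libraries. Of 7 NK and lymphocyte markers 2 were tested, and the sum of 149.6 to 168 and 1323 to 1606 CPM was nearly all Gzmb, which had a log2 fold change of 3.21, while Ncr1, Klrb1c and Cd3e had at most 0.881 CPM in any library. The part of these cells in the receptor changes was not tested.

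The genes whose log2 CPM followed Cd200r3 most closely over the 6 libraries, of 6693 genes with at least 20 CPM, were Cd47, Map2k4 and Cyp11a1. Pearson's r was at least 0.9997 for each, a description over points that form 2 groups of 3 libraries. Cyp11a1, which encodes the enzyme that starts steroid synthesis from cholesterol, went from 1355 to 3679 CPM. The genes closest to Clec12a were Gm14328, Fabp5 and Gm6166, with r of 0.9988, 0.9983 and 0.9980. Fabp5, a fatty acid-binding protein, went from 1558 to 587 CPM.

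Facts of the series bear on all of these values. Library totals ranged from 10537540 to 13999287 counts, and all 10 receptors had at least 73 reads in every library. Scaling by library totals alone shifted the median of all log2 fold changes by -0.16, and gave 1698 higher and 5030 lower genes in place of 3003 and 3372. No receptor changed direction or lost its call under it.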

How the data were processed

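Bulk RNA-seq of 6 BMBA libraries, 3 PBS and 3 IL-3, was analysed from a table of raw read counts that the authors deposited, with 1 row per gene symbol. The authors trimmed reads with Cutadapt 3.4 (per the labels) and mapped them with Bowtie2 to reference RNA of GRCm38 according to the methods, whereas the labels name GRCm39. Positions given here are those of GENCODE M21 (GRCm38), in which 96.1% of the symbols were found. The RNA source also differs, a column kit in the labels and direct lysis in the methods. No molecular identifiers are described, so reads copied by PCR count separately, and no step for assigning reads of several origins is described.

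The groups were compared in edgeR 4.0.16 (R 4.3.3) after filterByExpr, with TMM scaling, by the quasi-likelihood F test on the group alone. All adjusted p-values are two-sided Benjamini-Hochberg values over the 16675 genes tested, called under 0.05. The replicates are cultures per the study, and how independent they were is not stated, so p-values measure the spread between these samples. CPM is on TMM-scaled library sizes, and ± is the SD. Ratios used a pseudocount of 0.5. Sequence sharing was counted over 50-mers of coding transcripts. A gene without reads in a library may have had up to 3 counts, which is 0.233 to 0.296 CPM by library and covers counting error only. The model was tested on simulated data.

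The members and gene lists were chosen with earlier results of these data known. All members are named. From each further list the 3 largest called rises and 3 largest called falls with at least 5 CPM in the higher group are named, from each marker list the most abundant gene and the largest called rise and fall, and the adaptors Tyrobp, Hcst, Fcer1g, Ptpn6, Inpp5d, Dok1 and Dok2 in any case. A few genes were taken off the lists, are not reported here and enter no list count. Gm49339, Gm40645, Rab37, Trem1, Shc1, Sh2b3, Lyn, Ptpn11, Cd9, Itga2, Cd200r2, Pira2, Cd300ld5, B2m, H2-K1, H2-D1 and the lymphocyte markers were named after their values were seen. Alternatives were DESeq2 1.42.0 size factors and Wald test, library totals, iterated TMM, no filter, 1 CPM in 3 libraries, limma-voom from limma 3.58.1, a replicate block, each library left out, relatives summed, an adjusted p of 0.01, and ratio pseudocounts of 0 and 2.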

Additional observations from a re-analysis of the deposited data

How the results depend on the processing

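All 10 receptors kept their direction and their call under every alternative run for them, and 7 were higher and 3 lower in the 15 alternatives that counted them singly. The sums of relatives merge members and gave no such count. The highest adjusted p over those alternatives was 0.00428, for Pirb. With library totals 1698 genes were called higher, as the median of all genes moved down by construction. With each library left out in turn, 2482 to 2787 genes were higher and 2883 to 3108 lower, and the lowest and highest log2 fold changes were 0.39 and 0.55 for Pirb, -1.35 and -1.15 for Clec12a, and 2.33 and 2.35 for Lilrb4a. Summing relatives gave 2.08 for Lilrb4a with Lilr4b, 1.38 for Cd200r2, Cd200r3 and Cd200r4, and 0.38 for Pirb with Pira2 and Lilra6. The sums that include Gm49339 and other rows were chosen after the data were seen. The ratios shifted in the same direction throughout, by 0.48 to 0.51 for Lilrb4a over Lilr4b, -0.29 to -0.18 for Cd200r1 over Cd200r3, -0.70 to -0.60 for Cd200r1 over Cd200r4, -0.73 to -0.64 for Cd300a over Cd300lb and 0.99 to 1.16 for Cd300lf over Cd300lb.

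A replicate block gave 2842 higher and 3247 lower genes. Deviations from the group means correlated between same-numbered libraries at -0.0087, -0.016 and -0.022. No large shared replicate effect was thus seen, and the block changed no receptor's call. Whether same-numbered cultures were paired cannot be told from these values. The block left the mean shift of the ratios at 0.49, -0.23, -0.66, -0.68 and 1.09 by construction. Depth limits Clec12a most, which rests on as few as 73 reads in a library.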
